A study of Mus musculus with 16 samples.

Results

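The p53 target and growth arrest genes described here were 10 genes chosen by name, Cdkn1a, Gadd45a, Eda2r, Sesn1, Mdm2, Ccng1, Bbc3, Bax, Trp53inp1 and Phlda3, whose rows in the count table were found by matching Ensembl identifiers to gene symbols on the mouse build GRCm38. They were 10 of 29730 genes in the table and 10 of the 14960 genes that passed the filter on low counts. RNA of the tibialis anterior, the main muscle that lifts the foot, had been sequenced in 16 male mice aged 7 weeks, with the strain label C57BL/6N for all. The 4 groups of 4 mice were WT_PBS (wild type, injected with the buffer PBS), WT_ASO (wild type, injected with an antisense oligonucleotide named ASO1), KO_PBS (Bin1mck-/-, PBS) and KO_ASO (Bin1mck-/-, ASO1). ASO1 was directed at Dnm2, and the title of the series gives the Bin1mck-/- line as a model of recessive centronuclear myopathy, a muscle disease in which nuclei lie at the centre of the fibre. Neither the cells in which Bin1 was deleted nor the dose and schedule of injection were stated in the labels or the series text. The stated comparison was that of transcriptomes across genotypes.

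The p53 protein is a transcription factor that is stabilised by DNA damage and other stress and that binds a pair of adjacent decamers near its target genes. Its targets stop the cell cycle, trigger apoptosis, restrain growth signalling and, through Mdm2, lower p53 itself. In skeletal muscle several of these genes are also known to respond to loss of innervation and to atrophy, and Cdkn1a and Gadd45a in particular can be induced without p53. No p53 protein was measured here.

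Promoter sequences are shown first because a match to the p53 binding site lay close to the start of 2 of the 10 genes. RefSeq gave 13 promoter windows for 9 of the 10 genes on GRCm38.p6, each reaching from 250 bases before to 50 bases after a transcription start. A p53 site was searched as 2 adjacent decamers without a spacer, 20 bases in all, a pattern that reads the same on both strands. Each decamer had purines, then C, A or T, A or T, G, then pyrimidines. At most 2 mismatches were allowed, and the C and G of both decamers had to match. Such a site was found in 107 of all 32851 windows (0.326%) and in 45 of 13978 windows of genes tested here (0.322%). Among the 10 genes it was found for Cdkn1a and Ccng1, with 1 mismatch each. Both sites are written on the strand of their gene, plus for Cdkn1a and minus for Ccng1. The Cdkn1a site lay at chr17:29090928-29090947, beginning 51 bases before the upstream of its 2 listed starts, which are 2790 bases apart. The Ccng1 site lay at chr11:40755462-40755481, beginning 195 bases before the start. Capitals mark the 4 core bases of each decamer.
Cdkn1a site: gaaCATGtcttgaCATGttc
Ccng1 site: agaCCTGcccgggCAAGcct

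The 250 bases before the start are given for both genes with a site and for Eda2r and Gadd45a, the other 2 genes that differed between genotypes. Capitals mark the 20-base p53 site where there was one. Coordinates are chr17:29090729-29090978 (plus strand) for Cdkn1a, chr11:40755287-40755536 (minus strand) for Ccng1, chrX:97377210-97377459 (minus strand) for Eda2r and chr6:67037408-67037657 (minus strand) for Gadd45a.
Cdkn1a: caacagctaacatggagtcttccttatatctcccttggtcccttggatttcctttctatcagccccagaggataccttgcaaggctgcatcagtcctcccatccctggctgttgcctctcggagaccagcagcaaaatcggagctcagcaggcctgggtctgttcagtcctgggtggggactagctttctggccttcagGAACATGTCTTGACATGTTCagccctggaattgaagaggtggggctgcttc
Ccng1: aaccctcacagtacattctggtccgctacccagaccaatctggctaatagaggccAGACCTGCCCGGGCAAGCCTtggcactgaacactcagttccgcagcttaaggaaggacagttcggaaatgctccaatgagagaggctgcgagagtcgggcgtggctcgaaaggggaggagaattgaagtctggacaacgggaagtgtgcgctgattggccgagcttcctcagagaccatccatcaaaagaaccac
Eda2r: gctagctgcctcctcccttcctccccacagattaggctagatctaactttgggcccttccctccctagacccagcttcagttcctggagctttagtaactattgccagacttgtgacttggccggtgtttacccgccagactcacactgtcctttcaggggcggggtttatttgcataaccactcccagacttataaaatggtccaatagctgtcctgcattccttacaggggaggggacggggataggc
Gadd45a: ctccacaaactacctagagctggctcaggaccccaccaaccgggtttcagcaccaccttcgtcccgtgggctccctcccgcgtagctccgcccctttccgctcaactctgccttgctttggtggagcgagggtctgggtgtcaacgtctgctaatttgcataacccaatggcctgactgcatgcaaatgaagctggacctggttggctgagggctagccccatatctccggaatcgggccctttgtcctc
A single decamer without mismatch was present in a window of Cdkn1a, Gadd45a, Sesn1, Mdm2, Ccng1 and Bax and in none of Eda2r, Bbc3 and Phlda3, and 8.36% of all windows held one. The Eda2r window held 50.3% G and C and the 3 Bbc3 windows 74.7% to 78.0%. The search covered these windows only, and sites in introns or farther upstream were not analysed here.

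Total counts ran from 27591900 to 40862854 per sample, and the Pearson correlation of log2 CPM (counts scaled to library size with TMM factors) between samples of a group from 0.974 to 0.988. The targeted genes followed the labels. Bin1 measured 462.6 to 619.8 CPM in the 8 wild-type samples and 31.7 to 47.7 CPM in the 8 knockout samples, and Dnm2 measured 50.2 to 67.7 CPM in the 8 PBS samples and 20.7 to 31.1 CPM in the 8 ASO samples. Each sample was taken to be a separate mouse, so P values measure the spread between these samples. Fold changes and their standard errors (SE) are on the log2 scale (log2FC) from edgeR, and differentially expressed genes (DEGs) were those with an adjusted P value below 0.05 over all 14960 tested. In bulk muscle, fewer cells of a type and less RNA per cell cannot be told apart.

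The level of the 10 genes in wild-type muscle spanned a wide range. Per kilobase of exon (RPKM), Ccng1, which encodes cyclin G1, stood highest in WT_PBS with 273.4 ± 50.3 (SD, n = 4), followed by Phlda3, which encodes a pleckstrin homology domain protein that restrains Akt, with 121 RPKM. Mdm2 (10.3 ± 0.299 RPKM) and Gadd45a (10.03 ± 2.12 RPKM) were next and did not differ beyond their SD (n = 4). Sesn1 (5.87 ± 0.736 RPKM), Cdkn1a (5.10 ± 3.37 RPKM) and Bax (5.07 RPKM) also lay within their SD of each other (n = 4). Trp53inp1 (2.33 RPKM), Eda2r (1.97 ± 0.330 RPKM) and Bbc3 (0.358 ± 0.0890 RPKM) were lowest (n = 4). In KO_PBS, Cdkn1a (23.1 ± 1.70 RPKM), Gadd45a (19.95 ± 2.49 RPKM) and Eda2r (13.95 ± 4.30 RPKM) stood next after Ccng1 and Phlda3 (SD, n = 4).

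**Figure D1:**
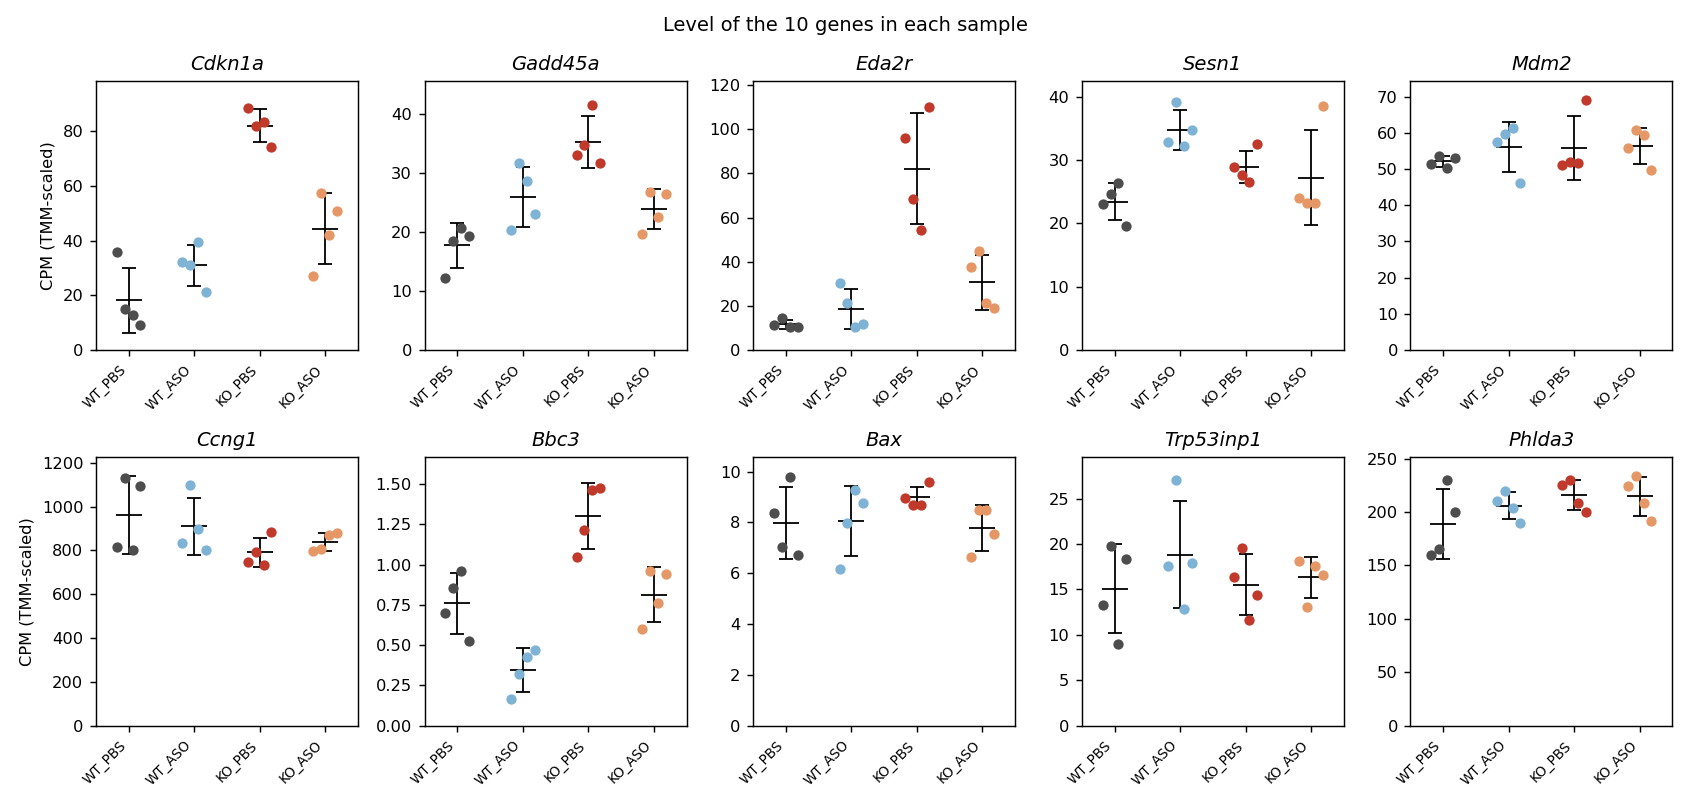
Level of each of the 10 genes in CPM after TMM scaling (y axis, from 0) in the 4 samples of WT_PBS, WT_ASO, KO_PBS and KO_ASO (x axis), 1 point per sample, with the group mean as a horizontal line and the SD as the error bar. The KO_PBS points of Cdkn1a, Eda2r and Bbc3 lie above all points of the other groups, and those of Gadd45a above all but the highest WT_ASO point, which is level with the lowest KO_PBS point at 31.6 CPM.

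The first comparison, KO_PBS vs WT_PBS, asked what the loss of Bin1 changed in mice that received no oligonucleotide. Cdkn1a, Gadd45a and Eda2r were DEGs, all higher in KO_PBS, and the other 7 genes did not pass the test. The 3 DEGs stand beside a background of 12.6% of all genes tested that were called in this comparison, 7.43% higher and 5.12% lower. The median log2FC of the 10 genes was 0.25, against -0.0108 for all genes. In 5 of the 10, Cdkn1a, Gadd45a, Eda2r, Sesn1 and Bbc3, every KO_PBS sample lay above every WT_PBS sample, which held for 10.5% of all genes in this direction.

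Among the growth arrest genes, Cdkn1a (ENSMUSG00000023067, chr17:29090976-29100727, plus strand, GRCm38, protein coding) encodes p21, an inhibitor of cyclin-dependent kinases that holds cells before DNA replication. It measured 35.7, 15.1, 12.7 and 9.03 CPM in WT_PBS replicates 1 to 4 and 32.1, 30.9, 39.7 and 21.2 CPM in WT_ASO. In KO_PBS it measured 88.7, 82.0, 83.5 and 74.1 CPM, and in KO_ASO 27.2, 57.4, 41.9 and 50.9 CPM. The 4 KO_PBS samples lay above the other 12 samples and close to each other, whereas WT_PBS replicate 1 lay within the WT_ASO samples. Cdkn1a was 4.53-fold higher in KO_PBS than in WT_PBS (log2FC 2.18, SE 0.35, edgeR adjusted P = 0.00127, 95% interval of the fold 2.68 to 7.66). Without WT_PBS replicate 1 the log2FC was 2.75, the highest of the 23 alternatives, and the call held in all 23.

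Gadd45a (ENSMUSG00000036390, chr6:67035096-67037457, minus strand, protein coding) encodes a growth arrest protein induced by DNA damage that binds other regulators of the cell cycle and stress kinases, and in muscle it is a known mediator of denervation atrophy. It measured 12.2, 18.5, 20.7 and 19.4 CPM in WT_PBS replicates 1 to 4 and 20.4, 31.6, 28.6 and 23.0 CPM in WT_ASO. In KO_PBS it measured 33.0, 34.7, 41.5 and 31.6 CPM, and in KO_ASO 19.7, 26.8, 22.5 and 26.5 CPM. KO_PBS did not overlap WT_PBS or KO_ASO, and its lowest sample was level with the highest WT_ASO sample at this precision. The gene was 1.99-fold higher in KO_PBS than in WT_PBS (log2FC 0.99, SE 0.17, edgeR adjusted P = 0.00113, 95% interval of the fold 1.56 to 2.54), and the call held in all 23 alternatives. Gadd45a shares 337 exon bases, 19.1% of its exons, with E230016M11Rik on the other strand, which had a mean of 32.3 counts against 896.8 for Gadd45a.

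The receptor of the group, Eda2r (ENSMUSG00000034457, chrX:97333840-97377216, minus strand, protein coding), belongs to the TNF receptor superfamily, binds ectodysplasin A2 and signals to NF-kB. It measured 11.3, 14.4, 10.3 and 10.4 CPM in WT_PBS replicates 1 to 4 and 30.3, 21.3, 10.5 and 11.8 CPM in WT_ASO. In KO_PBS it measured 96.0, 68.3, 54.5 and 110.0 CPM, and in KO_ASO 37.5, 44.7, 21.4 and 19.02 CPM. All KO_PBS samples lay above the other 12, and the 4 KO_ASO samples lay between the KO_PBS and the WT_PBS samples without overlapping either. Eda2r showed the largest difference of the 10 genes and was 7.11-fold higher in KO_PBS than in WT_PBS (log2FC 2.83, SE 0.37, edgeR adjusted P = 0.000189, 95% interval of the fold 4.14 to 12.2). The call held in all 23 alternatives.

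The remaining targets, all protein coding, were closer between genotypes. Mdm2 (ENSMUSG00000020184, chr10:117688875-117710758, minus strand), the ubiquitin ligase that p53 induces and that degrades p53, measured 51.5, 53.7, 50.4 and 53.1 CPM in WT_PBS and 51.0, 51.9, 51.6 and 69.0 CPM in KO_PBS. Apart from KO_PBS replicate 4 these samples lay between 50.4 and 53.7 CPM, and the 95% interval of the fold, 0.914 to 1.25, lay below that of Cdkn1a (log2FC 0.10, SE 0.11, edgeR adjusted P = 0.604). In WT_ASO Mdm2 measured 46.1 to 61.4 CPM and in KO_ASO 49.7 to 60.8 CPM. Ccng1 (ENSMUSG00000020326, chr11:40748552-40755311, minus strand), whose promoter window holds the other p53 site, measured 815, 1132, 800.2 and 1094 CPM in WT_PBS and 748, 794, 735 and 884 CPM in KO_PBS. The samples overlapped, and its log2FC of -0.28 (SE 0.13, edgeR adjusted P = 0.159) was the only negative one of the 10. By limma-voom Ccng1 was called lower (log2FC -0.33, adjusted P = 0.0488). Ccng1 measured 804 to 1098 CPM in WT_ASO and 799 to 877 CPM in KO_ASO.

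Sesn1 (ENSMUSG00000038332, chr10:41809935-41908424, plus strand), a sestrin that restrains mTORC1 when amino acids are scarce, measured 23.1, 24.6, 26.4 and 19.5 CPM in WT_PBS and 28.9, 27.6, 26.6 and 32.5 CPM in KO_PBS. The groups did not overlap but nearly touched, and the log2FC was 0.30 (SE 0.15, edgeR adjusted P = 0.189). The difference passed the threshold without KO_ASO replicate 4 (0.0454), a library of neither group that adds to the shared estimate of the spread. Phlda3 (ENSMUSG00000041801, chr1:135766119-135769136, plus strand) measured 160.0 to 229.5 CPM in WT_PBS, 189 to 219 CPM in WT_ASO, 199.6 to 230.3 CPM in KO_PBS and 191 to 234 CPM in KO_ASO, with overlap between all groups (log2FC 0.19 between genotypes, edgeR adjusted P = 0.262, and 0.34 and 0.0435 with library totals alone). Trp53inp1 (ENSMUSG00000028211, chr4:11156431-11174379, plus strand), a stress-induced nuclear protein, measured 8.98 to 19.8 CPM in WT_PBS, 12.9 to 27.1 CPM in WT_ASO, 11.6 to 19.6 CPM in KO_PBS and 13.1 to 18.1 CPM in KO_ASO, again with overlap (log2FC 0.04, edgeR adjusted P = 0.937). The 95% interval of Trp53inp1, from -0.48 to 0.56 on the log2 scale, was the widest of the genes that overlapped.

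Of the genes that act in apoptosis, Bbc3 (ENSMUSG00000002083, chr7:16308393-16318205, plus strand), which encodes the BH3-only protein PUMA, measured 0.702, 0.857, 0.960 and 0.527 CPM in WT_PBS and 1.05, 1.22, 1.46 and 1.48 CPM in KO_PBS, from 21 to 37 and from 38 to 60 counts per library. The groups did not overlap, and the log2FC of 0.78 (SE 0.27) missed the threshold (edgeR adjusted P = 0.0720). It passed with library totals alone (0.0351), with DESeq2 (0.0340), with limma-voom (0.0184) and without WT_ASO replicate 1 (0.0428). Bax (ENSMUSG00000003873, chr7:45461697-45466898, minus strand), which opens pores in the outer mitochondrial membrane, measured 6.72 to 9.81 CPM in WT_PBS and 8.68 to 9.59 CPM in KO_PBS (log2FC 0.17, SE 0.14, edgeR adjusted P = 0.476).

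**Figure D2:**
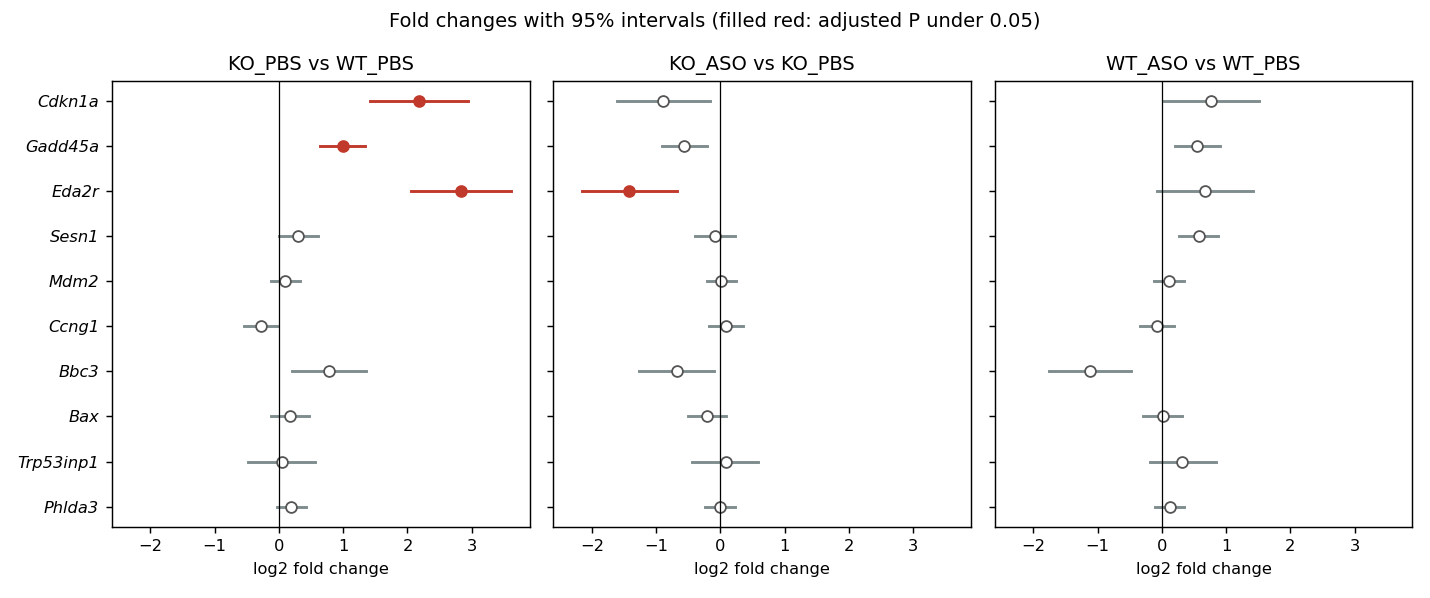
Log2 fold change of each of the 10 genes (x axis) with its 95% interval from edgeR, in KO_PBS vs WT_PBS, KO_ASO vs KO_PBS and WT_ASO vs WT_PBS (left to right), filled red where the adjusted P was under 0.05. In the left panel Cdkn1a, Gadd45a and Eda2r are filled at 2.18, 0.99 and 2.83, in the middle panel Eda2r at -1.42, and in the right panel none.

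The second comparison, KO_ASO vs KO_PBS, asked what the oligonucleotide changed in knockout mice. Eda2r was the only DEG of the 10, lower in KO_ASO, in a comparison that called 3.64% of all genes, 2.83% as lower and 0.802% as higher. It was 0.373 times its KO_PBS level (log2FC -1.42, SE 0.35, edgeR adjusted P = 0.0373, 95% interval of the fold 0.224 to 0.622). The call was lost when no genes were filtered (0.104), when only the 2 groups were fitted (0.0618) and without WT_PBS replicate 1 (0.0501) or 3 (0.0504), KO_PBS replicate 1 (0.110) or 4 (0.0934) or KO_ASO replicate 1 (0.0751), 3 (0.102) or 4 (0.0609), with log2FC from -1.67 to -1.25 over all alternatives.

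In 5 of the 10 genes, Cdkn1a, Gadd45a, Eda2r, Bbc3 and Bax, every KO_ASO sample lay below every KO_PBS sample, which held for 6.34% of all genes in this direction. Cdkn1a had a log2FC of -0.89 (SE 0.34, edgeR adjusted P = 0.174) and passed the threshold without WT_PBS replicate 1 (0.0414). For Gadd45a the log2FC was -0.56 (SE 0.16, edgeR adjusted P = 0.0687), and it passed in 6 of 23 alternatives, among them library totals alone (0.0280), DESeq2 (0.0278), limma-voom (0.0201), the compared groups alone (0.0498) and leaving out WT_PBS replicate 1 (0.0387). Bbc3 measured 0.597, 0.959, 0.761 and 0.941 CPM in KO_ASO (log2FC -0.68, SE 0.27, edgeR adjusted P = 0.190). Bax measured 6.63 to 8.50 CPM (log2FC -0.21, SE 0.14, edgeR adjusted P = 0.490). The other 5 genes had a log2FC between -0.09 and 0.08. The median of the 10 was -0.15, against 0.0102 for all genes. This comparison and the first share the KO_PBS samples.

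In wild-type mice the oligonucleotide was tested by WT_ASO vs WT_PBS, and none of the 10 genes was a DEG by edgeR, DESeq2 or limma-voom, in a comparison that called 1 gene of 14960 (0.00668%). At an unadjusted edgeR P under 0.05 there were 4 of the 10, Sesn1, Bbc3, Gadd45a and Cdkn1a, against 6.45% of all genes. Sesn1 measured 32.9, 39.1, 32.2 and 34.8 CPM in WT_ASO, above all 4 WT_PBS samples, which gave a log2FC of 0.57 (SE 0.15, edgeR adjusted P = 0.453). Bbc3 measured 0.164, 0.318, 0.425 and 0.473 CPM in WT_ASO, from 5 to 17 counts per library and below all 4 WT_PBS samples, which gave a log2FC of -1.12 (SE 0.30, edgeR adjusted P = 0.539). Groups that did not overlap were 1.80% of all genes upward and 1.42% downward. Gadd45a (log2FC 0.55), Cdkn1a (0.77) and Eda2r (0.67) had positive values in WT_ASO and negative ones in KO_ASO against their own PBS group.

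A difference between genotypes in the response to the oligonucleotide was tested as an interaction, the log2FC of KO_ASO vs KO_PBS minus that of WT_ASO vs WT_PBS, which called 86 genes (0.575%), 0.515% of all genes as more negative in knockout mice. Gadd45a was the 1 gene of the 10 called, at -1.11 (SE 0.23, edgeR adjusted P = 0.0437, 95% interval -1.60 to -0.62). In the same interaction all 11 macrophage markers were negative (median -2.07, with Cd68 and Cd163 called), as were 9 of 11 denervation genes (median -1.23, with Ncam1 called), and their part in the value of Gadd45a was not tested. Cd68 and Ncam1 held in all 22 alternatives, whereas Cd163 was lost in 12 (adjusted P from 0.0538 to 0.104), 11 of which left out 1 sample, all except WT_PBS replicate 2, WT_ASO replicate 2, KO_PBS replicates 2 and 3 and KO_ASO replicate 4. The Gadd45a call was lost on leaving out any of 13 of the 16 samples, all except WT_PBS replicate 3, WT_ASO replicate 1 and KO_ASO replicate 4, with adjusted P from 0.0520 to 0.104 and values from -1.17 to -0.97. Eda2r had an interaction of -2.10 (SE 0.49, edgeR adjusted P = 0.0710), Cdkn1a of -1.66 (SE 0.48, 0.151) and Sesn1 of -0.66 (SE 0.21, 0.174). Among the alternatives, DESeq2, which called 385 genes in all, called Eda2r (0.00113) and Cdkn1a (0.0176) as well, and Eda2r was called in 1 further alternative. Cdkn1a was also called without WT_PBS replicate 1 (-2.23, edgeR adjusted P = 0.00965), and Sesn1 by limma-voom (-0.80, 0.0398) and without KO_ASO replicate 4 (-0.87, edgeR adjusted P = 0.0102).

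Treated knockout mice were also set against both wild-type groups. In KO_ASO vs WT_PBS, which called 0.0401% of all genes, none of the 10 passed by edgeR and 3 had an unadjusted P under 0.05, against 8.22% of all genes. Eda2r in every KO_ASO sample lay above every WT_PBS sample, at 2.65-fold (log2FC 1.41, SE 0.35, edgeR adjusted P = 0.234), which held for 2.38% of all genes in this direction. DESeq2, which called 95 genes here against 6 by edgeR, called Eda2r (0.00771) and Cdkn1a (log2FC 1.29, 0.0179) in this comparison. EdgeR called Cdkn1a without WT_PBS replicate 1 (log2FC 1.86, adjusted P = 0.00774). In KO_ASO vs WT_ASO, which called 0.0735%, none of the 10 passed by edgeR and 2 had an unadjusted P under 0.05, against 15.1% of all genes. Bbc3 had a fold of 2.32 without overlap (log2FC 1.22, SE 0.30, edgeR adjusted P = 0.108), against 2.96% of all genes without overlap in this direction. DESeq2, which called 422 genes here against 11 by edgeR, called Bbc3 (0.0194). KO_ASO is shared with the second comparison and the wild-type groups with the others.

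Exact permutation tests over samples were added for each of the 10 genes in the 5 comparisons. With 4 samples against 4 the smallest two-sided P is 0.0286, which every comparison without overlap reached, and after Benjamini-Hochberg adjustment over 50 tests the lowest value was 0.102. The adjusted value at this smallest P depends on how many of the 50 tests reach it, and here no gene passed the threshold.

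Around the receptor Eda2r, 8 further genes of ectodysplasin signalling and of the alternative NF-kB pathway were read, of which 7 were tested. Of these 2, Nfkb2 and Relb, were DEGs in KO_PBS vs WT_PBS, both higher, where 7.43% of all genes were called higher. Nfkb2 encodes the precursor p100 and its product p52, and Relb its partner subunit. Nfkb2 measured 12.4, 11.3, 15.0 and 11.9 CPM in WT_PBS and 30.7, 35.3, 41.1 and 35.6 CPM in KO_PBS, 2.82-fold higher without overlap (log2FC 1.5, SE 0.14, edgeR adjusted P = 1.14e-05). In KO_ASO it measured 16.4, 20.9, 16.7 and 17.2 CPM, below every KO_PBS sample and above every WT_PBS sample (log2FC -1 against KO_PBS, SE 0.14, edgeR adjusted P = 0.00108). Both calls held in all 23 alternatives.

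Relb measured 5.55 ± 0.468 CPM in WT_PBS and 9.89 ± 0.676 CPM in KO_PBS (SD, n = 4). This difference (log2FC 0.83, SE 0.19, edgeR adjusted P = 0.00791) held in all 23 alternatives. Its log2FC of -0.70 in KO_ASO against KO_PBS (edgeR adjusted P = 0.0448) was lost in 14 of 23, among them without KO_ASO replicate 1 (0.147) and without KO_PBS replicate 1 (0.107). Map3k14, the kinase that starts the alternative pathway, had a log2FC of 0.68 in KO_PBS vs WT_PBS (edgeR adjusted P = 0.0624), and Eda, the ligand gene, measured 3.17 ± 0.976 CPM in WT_PBS and 2.74 ± 0.247 CPM in KO_PBS (SD, n = 4; edgeR adjusted P = 0.584). The median log2FC of the 7 genes was 0.34 in KO_PBS vs WT_PBS and -0.22 in KO_ASO vs KO_PBS. A link of Nfkb2 or Relb to Eda2r was not tested, nor was the part of other cell types in their levels.

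**Figure D3:**
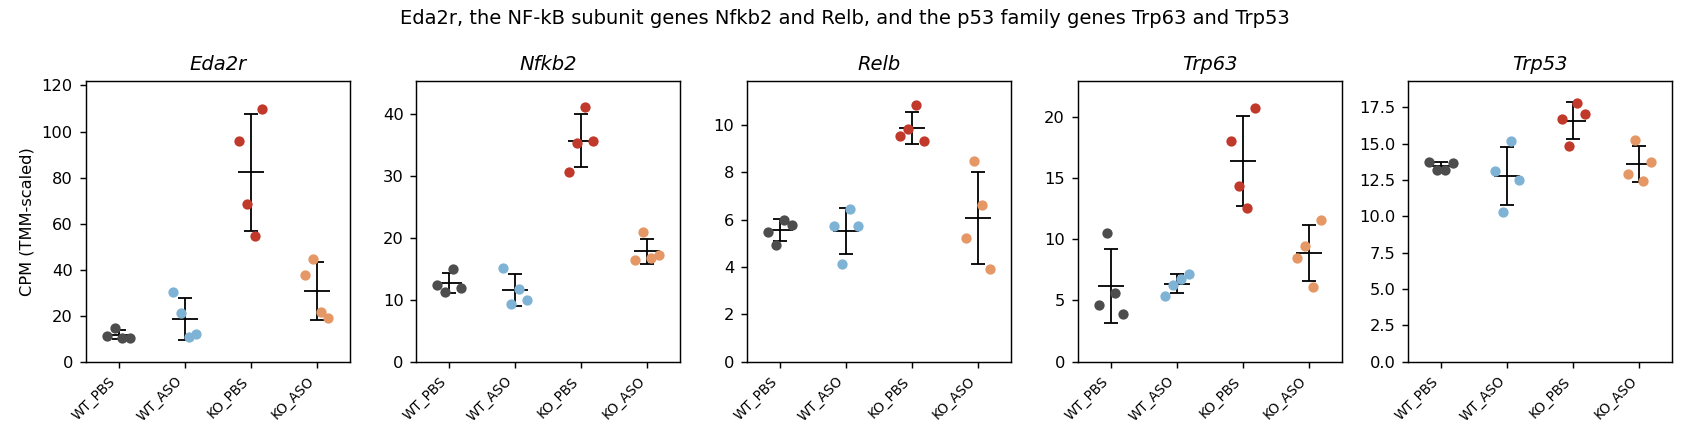
CPM after TMM scaling (y axis, from 0) of Eda2r, Nfkb2, Relb, Trp63 and Trp53 in the 4 samples of each group (x axis), 1 point per sample, with the mean as a line and the SD as the error bar. KO_PBS lies above the WT_PBS samples in all 5 genes, at a mean of 82.2 against 11.6 CPM for Eda2r and 16.6 against 13.45 CPM for Trp53.

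Of p53 itself and its regulators, 13 of 14 genes were tested, with a median log2FC of -0.06 in KO_PBS vs WT_PBS. Of these, 1 was higher and 3 were lower, where 7.43% of all genes were called higher and 5.12% lower. Trp53 measured 13.7, 13.2, 13.2 and 13.7 CPM in WT_PBS and 16.7, 14.8, 17.8 and 17.1 CPM in KO_PBS. The groups did not overlap, but the log2FC of 0.30 (SE 0.11) missed the threshold (edgeR adjusted P = 0.0693). The higher gene was Trp63, a p53 family member with its own role in epithelia, with a mean of 6.16 ± 3.01 CPM in WT_PBS and 16.4 ± 3.68 CPM in KO_PBS (SD, n = 4; log2FC 1.43, SE 0.27, edgeR adjusted P = 0.00283), a call that held in all 23 alternatives. In KO_ASO it measured 8.91 ± 2.29 CPM (SD, n = 4; log2FC -0.88 against KO_PBS, edgeR adjusted P = 0.0757). The lower genes were Usp7, a deubiquitinase of Mdm2 and p53 (-0.35, edgeR adjusted P = 0.00633, lost with library totals alone at 0.0778), Cop1, a ubiquitin ligase for p53 (-0.44, 0.0384), and Hipk2, a kinase of p53 (-0.88, 0.0433). Cop1 and Hipk2 were both lost without KO_PBS replicate 1 or 3 or WT_PBS replicate 2 or 4 (adjusted P from 0.0896 to 0.125). In KO_ASO vs KO_PBS Usp7 was higher (0.31, edgeR adjusted P = 0.0319), a call lost in 10 of 23 alternatives, among them without KO_PBS replicate 1 (0.119). Mdm4, the partner of Mdm2, had a log2FC of -0.09.

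A list of 30 other p53 targets showed no common direction in KO_PBS vs WT_PBS. Of the 27 tested, 2 were higher and 4 lower, where 7.43% of all genes were called higher and 5.12% lower. The median log2FC was -0.01, against -0.0108 for all genes. Sfn, the 14-3-3 protein that holds cells before mitosis, measured 0.994, 0.596, 1.53 and 1.15 CPM in WT_PBS, 2.90, 3.17, 2.49 and 2.86 CPM in KO_PBS and 0.869, 1.34, 0.865 and 1.32 CPM in KO_ASO. KO_PBS overlapped neither of the other groups (log2FC 1.40, SE 0.25, edgeR adjusted P = 0.00161 against WT_PBS, and -1.37, SE 0.25, edgeR adjusted P = 0.00566 for KO_ASO against KO_PBS), and both calls held in all 23 alternatives. Zmat3, an RNA-binding zinc finger protein, rose by a log2FC of 0.51 (SE 0.11, edgeR adjusted P = 0.00723).

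Tigar, a phosphatase that lowers glycolytic flux, went the other way. It measured 131, 159, 149 and 188 CPM in WT_PBS and 66.8, 80.2, 84.9 and 86.8 CPM in KO_PBS, without overlap (log2FC -0.98, SE 0.16, edgeR adjusted P = 0.000981), and 141, 123, 139 and 84.4 CPM in KO_ASO. The log2FC of 0.61 in KO_ASO against KO_PBS (edgeR adjusted P = 0.0443) was lost in 15 of 23 alternatives, among them without KO_PBS replicate 1 (0.163). Polk, a DNA polymerase that copies past lesions, fell by 0.75 on the log2 scale (edgeR adjusted P = 0.00997). The calls of Zmat3, Tigar and Polk between genotypes held in all 23 alternatives, and those of the other 2 lower genes, Ak1 (-0.40) and Ei24 (-0.27), did not.

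**Figure D4:**
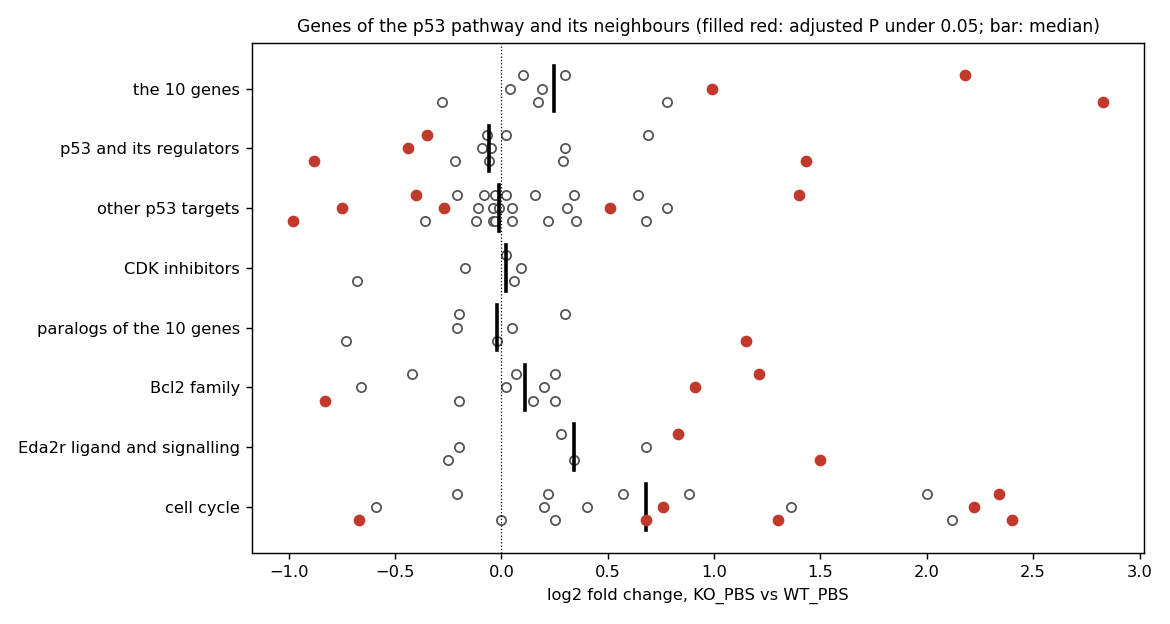
Log2 fold change in KO_PBS vs WT_PBS (x axis) of each tested gene of the 10 genes and of 7 lists around them (y axis), filled red where the edgeR adjusted P was under 0.05, with a vertical bar at the median of each list. Apart from cell cycle genes, with a median of 0.68, and Eda2r signalling, with 0.34, the list medians lie between -0.06 and 0.25.

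Close relatives of the 10 genes were examined by the same test, which called 12.6% of all genes. Of the 7 other CDK inhibitor genes 5 were tested and 0 called by edgeR, also 0 at an unadjusted P under 0.05 (27.3% of all genes), with Cdkn1b (p27) at a log2FC of -0.17 and Cdkn1c (p57) at 0.09. Of 8 paralogs 7 were tested and 1, Phlda1, was called (1.15, edgeR adjusted P = 0.0311), while Gadd45b and Gadd45g had log2FC of -0.73 and -0.21 and Sesn2 and Sesn3 of 0.05 and 0.30. Edar, the relative of Eda2r that binds the other ectodysplasin form, had 3 to 9 counts per WT_PBS library. Among 12 tested genes of the Bcl2 family other than Bax and Bbc3, Bid (1.21) and Bok (0.91), which promote apoptosis, were higher and Bcl2 (-0.83), which opposes it, was lower (edgeR adjusted P of 0.0249, 0.0283 and 0.0418). All 3 calls were lost without KO_PBS replicate 1 or WT_PBS replicate 2 or 4, and Bid and Bok without KO_PBS replicate 3. Bid, with a mean of 27.6 counts, shares 17.69% of its exons with Bcl2l13 on the other strand, with 4218 counts, so its value is uncertain. In KO_ASO vs KO_PBS Bcl2 was higher (1.01, edgeR adjusted P = 0.0387), a call lost in 10 of 23 alternatives, among them without KO_PBS replicate 1 (0.125).

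Of 20 cell cycle genes 19 were tested, with a median log2FC of 0.68 in KO_PBS vs WT_PBS. Of these, 6 were higher and 1 was lower, where 7.43% of all genes were called higher and 5.12% lower. Rb1, the retinoblastoma gene that restrains entry into replication, rose by 0.68 (SE 0.15, edgeR adjusted P = 0.00847) and held in all 23 alternatives. It shares 8.11% of its exons with Rcbtb2 (mean 783.2 counts, against 787.8 for Rb1) and 6.78% with Lpar6, both on the other strand, which leaves some uncertainty. Ccnb2, a mitotic cyclin, had 5 to 8 counts per WT_PBS library and 22 to 46 per KO_PBS library (log2FC 2.22, edgeR adjusted P = 0.0266), Ccna2, cyclin A2, 8 to 22 and 48 to 94 (2.34, 0.0299), and Mki67, a marker of dividing cells, 13 to 33 and 103 to 256 (2.40, 0.0490). Ccna2 shares 12.49% of its exons with Exosc9 on the other strand (mean 771.8 counts) and is uncertain for that reason. Cdk6 (0.76) and Ccne1 (1.30) were the further higher genes and Mcm2 (-0.67) the lower one. Leaving out any 1 library of the 2 groups other than KO_PBS replicate 3 left 1 to 3 of these 7 calls. None of the 19 was called in KO_ASO vs KO_PBS by edgeR, and 4 had an unadjusted P under 0.05, against 17.7% of all genes.

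Of the 23 genes called between genotypes in these lists, 8 held in all 23 alternatives, namely Nfkb2, Relb, Trp63, Sfn, Zmat3, Tigar, Polk and Rb1. Usp7 was lost with library totals alone, and the other 14 were all lost without KO_PBS replicate 1, with adjusted P from 0.0549 to 0.161. None of the lists held a DEG in WT_ASO vs WT_PBS by edgeR.

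Markers of other cells moved in the same comparisons. In KO_PBS vs WT_PBS 7.43% of all genes were called higher and 5.12% lower. In KO_ASO vs KO_PBS 0.802% were called higher and 2.83% lower. Of 11 macrophage markers 10 were higher in KO_PBS vs WT_PBS (median log2FC 1.68) and 7 lower in KO_ASO vs KO_PBS (median -1.58), and none was at 0 in any sample. Of the 10, Adgre1, Itgam, Lyz2 and Mrc1 were lost without WT_PBS replicate 4 (adjusted P from 0.0508 to 0.102), which left 6. Of the 7, Cd68, Cd163 and Csf1r held in all 23 alternatives, and C1qa, C1qb, C1qc and Lyz2 were lost without KO_PBS replicate 1 (adjusted P from 0.0653 to 0.0825) and likewise without KO_PBS replicate 4 or KO_ASO replicate 1, 2 or 3, which left 3. Csf1r (mean 366.8 counts) shares 15.12% of its exons with Hmgxb3 on the other strand (934.8 counts), so its value is less certain. Their summed level was 49.8 to 80.2 CPM in WT_PBS, 51.2 to 113 CPM in WT_ASO, 129 to 383 CPM in KO_PBS and 54.8 to 84.3 CPM in KO_ASO. In KO_PBS replicates 1 to 4 the sums were 217, 130.2, 129 and 383 CPM, the same order of samples as Eda2r, whereas Cdkn1a was lowest in the sample with the highest sum. Lyz2 was the largest marker in KO_PBS (38.13 to 171.5 CPM, against 17.55 to 25.61 CPM for Cd68), so the order of the sum need not be that of each marker. In KO_ASO the sums of 57.3, 54.8, 64.3 and 84.3 CPM ran opposite to Eda2r. The part of these cells in the results for the 10 genes was not tested.

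Of 6 satellite cell markers 5 were lower in KO_PBS vs WT_PBS (median log2FC -1.39), where 5.12% of all genes were called lower. Of the 5, Myf5 was lost in 6 of 23 alternatives, among them without KO_PBS replicate 1 (edgeR adjusted P = 0.0747). The sums were 39.4 to 47.4 CPM in WT_PBS and 27.99 to 31.33 CPM in KO_PBS. Of 6 fibroblast markers 3, Dcn, Dpt and Pdgfra, were higher (median 0.71), where 7.43% of all genes were called higher. All 3 calls were lost without KO_PBS replicate 1 (adjusted P from 0.0992 to 0.138), and likewise without KO_PBS replicate 4 or WT_PBS replicate 1 or 3. Dpt alone was kept without WT_PBS replicate 2. The fibroblast sums were 763 to 1040 CPM in WT_PBS and 1029 to 1764 CPM in KO_PBS. Most of each sum came from Col1a1 and Col3a1, which were not called, with means of 296.3 and 403.7 CPM in WT_PBS and 440.3 and 757.4 CPM in KO_PBS. In KO_ASO vs KO_PBS all 6 fibroblast markers had negative values (median -0.74). Of them 1, Dcn, was called, a call lost in 8 of 23 alternatives, where 2.83% of all genes were called lower. Of the 6 satellite cell markers 5 had positive values (median 0.59), with 0 called by edgeR. An unadjusted P under 0.05 was found for 3 of them, against 17.7% of all genes. Of 11 denervation genes 9 were higher (median 1.78), where 7.43% of all genes were called higher. Of the 9, Chrng was lost in 8 of 23 alternatives and Musk in 2, in both cases also without KO_PBS replicate 1 (edgeR adjusted P of 0.164 and 0.0502). In KO_ASO vs KO_PBS 5 of the 9 were lower, where 2.83% of all genes were called lower. Of these 5, Chrna1 and Chrnd were lost without KO_PBS replicate 1 (adjusted P from 0.0608 to 0.0799) and without KO_ASO replicate 3, which left 3 each time. Endothelial and Schwann cell markers had 0 of 5 called each by edgeR in KO_PBS vs WT_PBS, with 1 and 0 at an unadjusted P under 0.05 (27.3% of all genes). The 7 muscle fibre markers defined the tissue, with summed levels from 124800 CPM upward in every sample. Of them Tnnt3 and Tnni2 were lower, where 5.12% of all genes were called lower. Both calls were lost without KO_PBS replicate 1 (adjusted P of 0.0504 and 0.0737) and with library totals alone (0.0588 and 0.111). How far these shifts bear on Cdkn1a, Gadd45a and Eda2r was not tested.

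The genes most like the 3 DEGs were taken as those with the smallest root mean square distance of log2 CPM over all 16 samples, each gene centred on its WT_PBS mean. For Eda2r they were 4930512H18Rik (distance 0.373), Cpne2 (0.441), Gsdma (0.483), Cd101 (0.520) and Plekhh2 (0.561). For Cdkn1a they were 4930512H18Rik (0.522), 2900079G21Rik (0.528), Scx (0.538), Uchl1 (0.586) and Armh4 (0.599), and for Gadd45a they were Mvd (0.237), Mknk2 (0.291), Plp2 (0.301), Usp20 (0.303) and Gm32817 (0.304). The gene 4930512H18Rik, annotated as antisense, was nearest to both Eda2r and Cdkn1a. Within groups, the deviations of Cdkn1a from its group means had a Pearson correlation of 0.01 with those of Eda2r and -0.23 with those of Gadd45a over 16 samples, and those of Gadd45a and Eda2r one of -0.30, as a description of libraries that share depth and tissue composition.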

How the data were processed

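RNA-seq counts of the tibialis anterior of 16 mice were used, with 4 samples in each of 4 groups given by the labels. The authors deposited 1 table of raw counts per gene with Ensembl identifiers. Per the labels, TRI Reagent was used for extraction and the TruSeq Stranded mRNA kit for the libraries. Tools listed by the submitters, without roles, were HTSeq 0.6.1p1, STAR 2.5.3a, Bowtie2 2.2.8 and cutadapt 1.10, and the build was GRCm38. Whether counting used the strand is not given in the sources used here, so reads in exons shared with a gene on the other strand may not be assigned to the right gene. All 29730 identifiers were matched to GENCODE M21.

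Genes with low counts were removed with filterByExpr (14770 genes), leaving 14960, which were tested with edgeR 4.0.16 (TMM scaling, robust quasi-likelihood, 1 mean per group over all 16 samples, Benjamini-Hochberg adjustment, threshold 0.05) in R 4.3.3. The common biological coefficient of variation was 18.7%. CPM values used TMM library sizes, log2 CPM a prior count of 2, and RPKM the summed exon length. DESeq2 1.42.0, limma-voom (limma 3.58.1), other scalings, no filter, the compared groups alone, a replicate block and leaving out each sample were alternatives, 23 for each comparison of 2 groups. Total counts of 27591900 to 40862854 leave genes of a few counts imprecise. No 2 samples of a group agreed within sampling noise (mean chi-square per gene of 22.2 or more). The scripts were tested on simulated data.

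The 10 genes and all lists were chosen with earlier results of these data known. Named beside them, by rule, were up to 4 genes of each list with the smallest P among those called between genotypes, list genes called in another comparison, Trp53, and the 5 genes nearest in profile to Cdkn1a, Gadd45a and Eda2r. Other list genes named, such as Map3k14, Eda, Mdm4 and the paralogs, were chosen after their values were seen. The search for p53 sites had been planned over longer windows and was made in RefSeq promoter windows, since no genome sequence was used here.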

Additional observations from a re-analysis of the deposited data

Results flagged for a closer look

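Mdm2 measured 69.01 CPM in KO_PBS replicate 4, apart from 51.0 to 51.88 CPM in the other 3 samples of the group. Sesn1 measured 38.46 CPM in KO_ASO replicate 4, apart from 23.17 to 24.0 CPM in the other 3. The summed satellite cell markers measured 43.47 CPM in KO_ASO replicate 3, apart from 28.19 to 30.41 CPM in the other 3. Other sums with 1 sample apart were those of the CDK inhibitors in WT_PBS replicate 1 (47.29 CPM against 65.13 to 67.42), the paralogs in WT_ASO replicate 1 (932.4 CPM against 1003 to 1017), the Schwann cell markers in WT_ASO replicate 4 (103.0 CPM against 37.41 to 42.38) and the cell cycle genes in WT_ASO replicate 4 (126.4 CPM against 99.71 to 101.7) and KO_PBS replicate 1 (160.4 CPM against 134.3 to 136.8). Each of these gaps was above the critical value of Dixon's test for 4 samples at the 95% level. The test was applied to 104 groups of 4 samples, those of 12 genes (the 10 genes, Bin1 and Dnm2) and of the sums of 14 lists, and 8 were above it, where chance gives about 1 in 20.

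The response of Gadd45a to the oligonucleotide differed between genotypes, with an interaction of -1.11 on the log2 scale (edgeR adjusted P = 0.0437) that was lost on leaving out any of 13 of the 16 samples.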

How the results depend on the processing

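The calls of Cdkn1a, Gadd45a and Eda2r in KO_PBS vs WT_PBS held in all 23 alternatives. Of 1370 values of the 10 genes under the alternatives, 1313 stayed on their side of the threshold without moving by more than 1 SE where uncalled, 24 passed it newly, 22 no longer passed it and 11 stayed uncalled but moved by more than 1 SE. No called value changed sign, and 50 of the 1313, all uncalled, did. The causes of the changes below were not tested. Library totals alone moved the median log2FC of all genes to 0.139 in KO_PBS vs WT_PBS and to 0.107 in KO_ASO vs WT_ASO. Of the 10 genes, those called in KO_PBS vs WT_PBS numbered 5 with library totals alone and 5 with limma-voom, against 3, while all genes called there numbered 2202 and 2699, against 1878. In KO_ASO vs KO_PBS they numbered 2 with library totals alone, DESeq2 or limma-voom and 0 without a filter, against 1. DESeq2 called 2 of them in KO_ASO vs WT_PBS and 1 in KO_ASO vs WT_ASO, against 0, and 3 in the interaction, where limma-voom called 2, against 1.

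All genes called in KO_ASO vs KO_PBS numbered 544, with 1056 by DESeq2, 1190 by limma-voom and 300 in the compared groups alone. In WT_ASO vs WT_PBS 1 gene was called, with 3 without a filter and 33 by DESeq2. In KO_ASO vs WT_PBS 6 were called, with 95 by DESeq2. In KO_ASO vs WT_ASO 11 were called, with 6 under DESeq2 size factors, 422 by DESeq2, 2 by limma-voom and 2 in the compared groups alone. In the interaction 86 were called, with 385 by DESeq2.

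On leaving out 1 sample, genes called ranged from 997 to 2137 (lowest without KO_PBS replicate 1) in KO_PBS vs WT_PBS, 208 to 831 (lowest without KO_PBS replicate 1) in KO_ASO vs KO_PBS, 1 to 4 in WT_ASO vs WT_PBS, 4 to 11 in KO_ASO vs WT_PBS, 2 to 19 in KO_ASO vs WT_ASO and 23 to 102 in the interaction. Of the 10 genes, those called ranged from 3 to 4, 0 to 2, 0 to 0, 0 to 1, 0 to 0 and 0 to 2 in the same order.

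With the replicate number as a replicate block, 2 of the 10 genes were called in KO_ASO vs KO_PBS (Gadd45a newly, edgeR adjusted P = 0.0189) and 2 in the interaction (Eda2r newly, 0.0365). All genes called with the block numbered 752 in KO_ASO vs KO_PBS, 126 in the interaction, 2322 in KO_PBS vs WT_PBS, 2 in WT_ASO vs WT_PBS and 44 in KO_ASO vs WT_ASO. Samples with the same number had correlations of their deviations from -0.0777 to 0.435. In WT_ASO vs WT_PBS all 4 pairs correlated best with their own number, as a hint from the data, but in no comparison were all 4 correlations above 0.1 and the labels do not say what a number marks, so the numbers were not taken to pair the mice. Whether they mark something shared was not tested. Genes of few counts, such as Bbc3 with 5 to 60 counts per library, carry more sampling noise, and the effect of depth on their calls was not tested.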

Other observations

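In both oligonucleotide groups Eda2r was higher in replicates 1 and 2 than in replicates 3 and 4, at 30.27 and 21.27 against 10.50 and 11.84 CPM in WT_ASO and at 37.45 and 44.71 against 21.35 and 19.02 CPM in KO_ASO. The summed fibroblast markers were lower in the same replicates, at 335.9 and 650.5 against 1197 and 1235 CPM in WT_ASO and at 412.2 and 452.7 against 1130 and 1373 CPM in KO_ASO. These sums were led by Col1a1 (82.86 to 607.4 CPM in WT_ASO, 81.59 to 509.6 CPM in KO_ASO) and Col3a1 (118.3 to 492.4 and 174.5 to 668.4 CPM). Dcn ranged less, from 101.6 to 161.5 and from 105.2 to 168.2 CPM. The split was seen after the values were read and was not tested.

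Deviations from the group means were correlated for all pairs of the 10 genes over 16 samples, and the pairs given here were picked after the values were seen as the highest and lowest. Pearson correlations were highest for Bbc3 with Bax (0.78) and Ccng1 with Trp53inp1 (0.70) and lowest for Bax with Trp53inp1 (-0.57), Eda2r with Bbc3 (-0.50) and Eda2r with Bax (-0.43), as a description of libraries that share depth and tissue composition.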
